A study of Mus musculus with 24 samples.

Results

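WMS-75 is 1 of 5 kappa opioid receptor (KOR) agonists that were added to mouse T cells in culture, and its 4 libraries are set here against the 16 libraries of the other 4 agonists, WMS-200, WMS-64, WMS-76 and WMS-83. These 20 libraries are part of a series of 24, in which the remaining 4 had the vehicle DMSO. The libraries were chosen by the compound code in the column names, and WMS-75 was set apart from the other codes with measured differences from the same counts already known. The number of genes that differ and the sizes of their differences were thus selected on, and they are given below as a description of these libraries. Every combination of agonist and cell type has 1 library, so a cell type held 1 library with WMS-75 and 4 libraries with another agonist, at the same stated dose of 0.1 µM for at most 5 days. All cells were wild type, were Th1, Th17, regulatory (Treg) or activated CD8 T cells polarized in vitro, and gave poly(A)-enriched messenger RNA. The compounds are known here by code only, and nothing is said about their structures. In the full treatment labels a suffix follows the code. It differs between cell types for WMS-75, WMS-200, WMS-64 and WMS-83, and is the same throughout for WMS-76. For the CD8 libraries of WMS-75, WMS-64 and WMS-83 the suffix in the title differs from that in the treatment label. Libraries were grouped by code alone, and the labels do not say what the suffix stands for.

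KOR belongs to the opioid receptors, which couple to inhibitory G proteins, lower the formation of cAMP and act on ion channels. Its natural ligands are the dynorphins, which are cut from the product of Pdyn, and T cells also make the enkephalin precursor that Penk encodes. Th1 cells make interferon gamma under the regulator T-bet, Th17 cells make interleukin 17, Treg cells are defined by Foxp3, and activated CD8 cells carry granzymes and perforin.

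The 4 WMS-75 libraries held 15409985 to 21510758 counts, against 16842562 to 21608525 in the libraries of the other agonists, and the Treg library of WMS-75 was the smallest of the 20. Levels are given as CPM, the count of a gene scaled to a common library size after TMM scaling. The WMS-75 libraries carried the markers of their labelled cell types. Cd4 was at 169 CPM in the CD8 library of WMS-75 and Cd8a at 79.2 in its Th17 library, inside 166 to 191 and 33.8 to 102 CPM under the other agonists. Ifng was at 538 CPM in Th1 and 1342 in CD8, Il17f at 687 in Th17, Foxp3 at 290 in Treg and Cd8a at 384 in CD8. Markers of other cells were low: 4 B cell markers summed to between 1.87 and 7.40 CPM in WMS-75 libraries and between 0.866 and 8.59 in the others, and 4 myeloid markers to between 0.426 and 1.33 against 0.407 and 2.89. The 2 NK markers summed to at most 0.444 against 1.04, the 3 stromal markers to between 11.1 and 43.5 against 11.5 and 56.9, nearly all of it Pecam1, while Ms4a1 was at 0 in the Th17 and Csf1r at 0 in the Th1 and Th17 libraries of WMS-75. Oprk1, the KOR gene itself, had 0 counts in the 4 WMS-75 libraries and 7 in the 16 others, where 0 counts allow up to 0.190 CPM in Th1 and 0.140 in Th17 (counting error only). Penk was abundant, with 989.9 CPM in Th1 under WMS-75 against 777 to 944 under the other agonists, 544 in CD8 against 537 to 600, 94.5 in Treg against 95.6 to 112 and 16.2 in Th17 against 14.3 to 18.7. It lay above the others in Th1, below them in Treg and inside their range in Th17 and CD8.

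The CD8 library of WMS-75 lacked counts of a gene that the other CD8 libraries had. Gm21742, a pseudogene that the file places on chromosome Y, had 0 counts in the CD8 library of WMS-75, against 118, 140, 120 and 82 counts under WMS-200, WMS-64, WMS-76 and WMS-83 and 80 under DMSO. In Treg it had 90 counts under WMS-75, against 0 under WMS-200, 128 under WMS-64, 115 under WMS-76 and 102 under WMS-83, and 0 under DMSO. The column names give each library a WT number with no stated meaning. In Treg that number is 3 for the WMS-200 and DMSO libraries and 2 for the other 4, whereas it is 2 for all CD8 libraries. In Th17 it is 3 for WMS-83, 2 for DMSO and 1 for WMS-75, WMS-200, WMS-64 and WMS-76. In Th1 it is 4 throughout. Among the 24 libraries and all genes, Gm21742 in the CD8 library of WMS-75 was the 1 case that a search found. This search asked for at most 2 counts in a library and at least 40 in each of the other 5 of its cell type. It was made after the gene had been noticed. That search could not find genes that were higher in a library. Mid1-ps1, another pseudogene of chromosome Y, had 742 counts in the CD8 library of WMS-75 against 329 to 447 under the other agonists. In Treg it had 395 counts under WMS-75 and 459 to 698 under WMS-64, WMS-76 and WMS-83, against 28 under WMS-200 and 29 under DMSO. It thus split the Treg libraries by WT number as Gm21742 did. In the Th1 and Th17 libraries it had 7 to 35 counts. Rskr had 36 counts in the CD8 library of WMS-75 against 4 to 6 under the other agonists. Under WMS-75 it was also above them in Th1 and Th17. What these counts mean for the origin of the CD8 library of WMS-75 was not tested. The main counts are given below with and without that library.

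No gene passed the test for WMS-75 against the other 4 agonists over the 4 cell types. Of 15898 genes tested 0 were called (0%) at an adjusted p under 0.05, and the smallest adjusted p was 0.526. The test was edgeR's quasi-likelihood test with cell type as a block and Benjamini-Hochberg adjustment. At an unadjusted p under 0.05 there were 1418 genes (8.92%), with 608 higher and 810 lower estimates under WMS-75. DESeq2 called 0 genes as well, with 1621 at an unadjusted p under 0.05, and limma-voom called 0 with 1548. The count depended on the filter on low counts: with no filter edgeR called 26 genes, Rpl30 and Dnm1 among them, and 134 without Treg. The 95% interval of the log2 difference lay within 0.5 of 0 for 93.1% of the 10224 genes with a mean of at least 5 CPM, and within 1 of 0 for 99.6%, with a median standard error of 0.077. Without the CD8 library of WMS-75 there was 1 called gene, Rpl30, and 1212 genes at an unadjusted p under 0.05. No combination of agonist and cell type was repeated and the labels do not tie the libraries to separate animals, so the p-values measure the spread between these libraries, which may be technical.

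Without the Treg libraries the count was again 0 of 14841 genes (0%), with a smallest adjusted p of 0.273 by edgeR. At an unadjusted p under 0.05 there were 1917 genes (12.9%), 937 higher and 980 lower. The interval lay within 0.5 of 0 for 92.3% of 9974 expressed genes and within 1 for 99.4%. Without the Th17 library of WMS-75 the number was 474 over the 4 cell types and 588 without Treg, and without its CD8 library it was 1889 without Treg, with 0 called genes.

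The same comparison was made for each of the other agonists, with the same libraries in other roles. Over the 4 cell types the genes at an unadjusted p under 0.05 were 680 under WMS-200 (4.28%), 858 under WMS-64 (5.4%), 223 under WMS-76 (1.4%) and 765 under WMS-83 (4.81%), and 0 genes (0%) passed the adjusted threshold for any of them. Without Treg WMS-200 had 240 such genes (1.62%), WMS-64 had 1041 (7.01%), WMS-76 had 679 (4.58%) and WMS-83 had 664 (4.47%). There WMS-83 had 1 called gene, with a lower estimate (0.00674%), and the other 3 had 0 (0%). By this unadjusted count, with all libraries in, WMS-75 had the highest number of the 5 in both sets. Without the Th17 library of WMS-75 its number over the 4 cell types was 474, and limma-voom called 18 genes for WMS-200 and 1 for WMS-64 against 0 for WMS-75. The 5 comparisons share all their libraries and their numbers were not tested against each other.

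**Figure D1:**
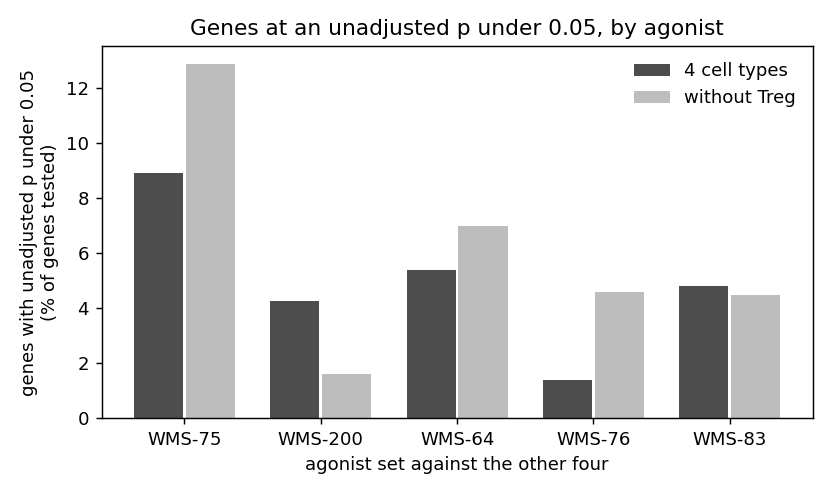
Share of tested genes at an unadjusted p under 0.05 (vertical axis, percent) when each agonist on the horizontal axis was set against the other 4, over 4 cell types (dark bars) and without Treg (light bars). The bars of WMS-75 reach 8.92% and 12.9%, and those of the other agonists lie between 1.4% and 7.01%.

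Set against 1 agonist at a time, with p adjusted over the genes of a pair, WMS-75 differed from WMS-200 in 1 gene of 15898 (0.00629%) and from WMS-64, WMS-76 and WMS-83 in 0 (0%). Genes at an unadjusted p under 0.05 were 608 against WMS-200 (3.82%), 1645 against WMS-64 (10.3%), 614 against WMS-76 (3.86%) and 1325 against WMS-83 (8.33%). The 95% interval lay within 0.5 of 0 for 87.8% of expressed genes against WMS-200, 84.5% against WMS-64, 87.2% against WMS-76 and 85.3% against WMS-83, and within 1 of 0 for 98.8 to 99.1% in the 4 pairs.

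The 1 gene was Rpl17-ps10, a processed pseudogene of a ribosomal protein gene that can share reads with its parent, so that its counts are uncertain. It was at 212 CPM in Th1, 196 in Th17, 56.3 in Treg and 181 CPM in CD8 under WMS-75, against 276, 329, 114 and 273 CPM under WMS-200. The WMS-75 library was the lower one in 4 of 4 cell types, by -0.68 ± 0.10 on the log2 scale (edgeR adjusted p = 0.0104 over the genes of the pair and 0.0414 over all 4 pairs). Against WMS-64, WMS-76 and WMS-83 its estimates were -0.46, -0.25 and -0.23, none of them called, and with the DMSO libraries in the fit the call against WMS-200 was lost. In each cell type the level under WMS-200 was the highest of all agonists. WMS-75 had the lowest level in Th17, Treg and, next to 213 CPM under WMS-76, in Th1. In CD8 the level under WMS-83 was lower still, at 158 CPM.

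An F-test among the 4 agonists taken as 1 group called 1 of 15924 genes (0.00628%), with 344 at an unadjusted p under 0.05 (2.16%). Against DMSO, in a fit of all 24 libraries, WMS-75 had 0 called genes (0%) of 15885 and 548 at an unadjusted p under 0.05 (3.45%), and the other 4 agonists together had 0 (0%) and 616 (3.88%). The DMSO libraries are shared by both.

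Counts of order use no model. Among the 10224 expressed genes the WMS-75 library was the lowest of the 5 agonist libraries in all 4 cell types for 54 genes (0.528%) and the highest for 12 (0.117%). For WMS-83 these numbers were 22 (0.215%) and 28 (0.274%), for WMS-64 21 (0.205%) and 22 (0.215%), for WMS-200 5 (0.0489%) and 5 (0.0489%), and for WMS-76 4 (0.0391%) and 3 (0.0293%). The genes lowest under WMS-75 include Polr2h and Polr2e, which encode subunits of RNA polymerase II, Polr1e of RNA polymerase I, the serine synthesis enzyme Phgdh, the tetraspanin Cd9, the calcium sensor Stim1 and the chromatin proteins Brd2 and Trim28. Those highest include Malt1 and Map3k8, which both act upstream of NF-κB, the cAMP phosphodiesterase Pde4c and Rif1, which acts in DNA repair. The estimates of the 54 lay between -0.68 and -0.09 on the log2 scale and those of the 12 between 0.11 and 0.51. The median gene length was 3310 bases for the 54 and 9091.5 for the 12. With expressed genes split by length into 5 classes, the middle class ran from 3856 to 5404 bases. Gene length is taken up below. None of the 66 passed the test over all genes.

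The 10 genes with the smallest p in each direction and the same side in all 4 cell types were taken as the genes to describe, and none of these 20 was called.

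Among those lower under WMS-75, Zmat5, which encodes a protein of the minor spliceosome, was at 7.61 CPM in Th1, 6.81 in Th17, 3.78 in Treg and 8.72 CPM in CD8. Under the other agonists it ranged from 10.2 to 12.1 CPM in Th1, 10.5 to 13.2 in Th17, 4.74 to 5.34 in Treg and 9.41 to 11.6 in CD8. The WMS-75 library lay below all 4 others in each cell type (-0.51 ± 0.11 on the log2 scale, and -0.53 ± 0.13 without Treg). Polr2h, a subunit that RNA polymerases share, lay below the others in each cell type too, with 24.6, 17.1, 5.59 and 19.1 CPM (in the order Th1, Th17, Treg and CD8) against 26.5 to 29.2, 19.3 to 22.1, 6.79 to 8.73 and 20.7 to 29.5 CPM (-0.32 ± 0.09). Pak1ip1, which acts in ribosome assembly, had 84.3, 146, 45.7 and 86.9 CPM against 88.7 to 94.3, 164 to 181, 48.6 to 53.5 and 91.3 to 101 CPM (-0.18 ± 0.05). Urm1, a ubiquitin-like protein that supplies sulfur for the modification of transfer RNA, was below the range of the others in Th1, Th17 and CD8 and inside it in Treg, with 46.4, 46.6, 23.6 and 33.4 CPM against 51.2 to 54.7, 52.7 to 60.9, 23.5 to 29.5 and 41.4 to 47.9 CPM (-0.26 ± 0.07). Cox14, which helps to assemble cytochrome c oxidase, was at -0.27 ± 0.07, 1810058I24Rik at -0.27 ± 0.07 and Tceanc2 at -0.32 ± 0.08. The remaining 3, Gm10443 (-0.52 ± 0.12), Gm10073 (-0.68 ± 0.17) and Gm10709 (-0.48 ± 0.13), are processed pseudogenes, whose counts are uncertain where they share reads with their parents.

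Among those higher under WMS-75, Sec61a2, a subunit of the channel that takes new proteins into the endoplasmic reticulum, had 17.8 CPM in Th1, 20.8 in Th17, 29.6 in Treg and 18.2 CPM in CD8. Under the other agonists it ranged from 13.4 to 15.0 CPM in Th1, 8.86 to 14.5 in Th17, 21.3 to 30.4 in Treg and 12.6 to 15.3 in CD8. The WMS-75 library lay above the others in Th1, Th17 and CD8 and inside their range in Treg (0.42 ± 0.11, and 0.52 ± 0.11 without Treg). Dnm1, the endocytic GTPase dynamin 1, had 7.55, 5.23, 60.4 and 4.83 CPM in Th1, Th17, Treg and CD8 against 3.603 to 5.21, 1.99 to 3.795, 37.7 to 64.9 and 3.44 to 4.71 CPM (0.56 ± 0.14). Its Treg level was again inside the range of the others. Agtpbp1, Malt1 and Pde4c lay above all 4 others in each cell type. Agtpbp1, an enzyme that trims glutamate from tubulin, had 36.02, 51.0, 57.4 and 33.9 CPM against 27.2 to 35.3, 34.0 to 44.7, 45.8 to 55.6 and 27.4 to 31.0 CPM (0.28 ± 0.07). Malt1, the protease of the complex that links the antigen receptor to NF-κB, had 260 CPM in Th1, 1148 in Th17, 310 in Treg and 232 CPM in CD8 against 222 to 248, 883 to 1051, 253 to 295 and 201 to 226 CPM (0.19 ± 0.06). Pde4c, an enzyme that breaks down cAMP, had 4.63, 6.63, 15.7 and 4.44 CPM against 2.73 to 3.79, 2.39 to 4.39, 11.99 to 15.5 and 2.90 to 4.35 CPM (0.51 ± 0.15). The tubulin acetyltransferase Atat1 was at 0.38 ± 0.11, the telomerase-associated Tep1 at 0.28 ± 0.08, Zc3hav1l at 0.34 ± 0.09 and the noncoding Gm15675 at 0.57 ± 0.16.

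**Figure D2:**
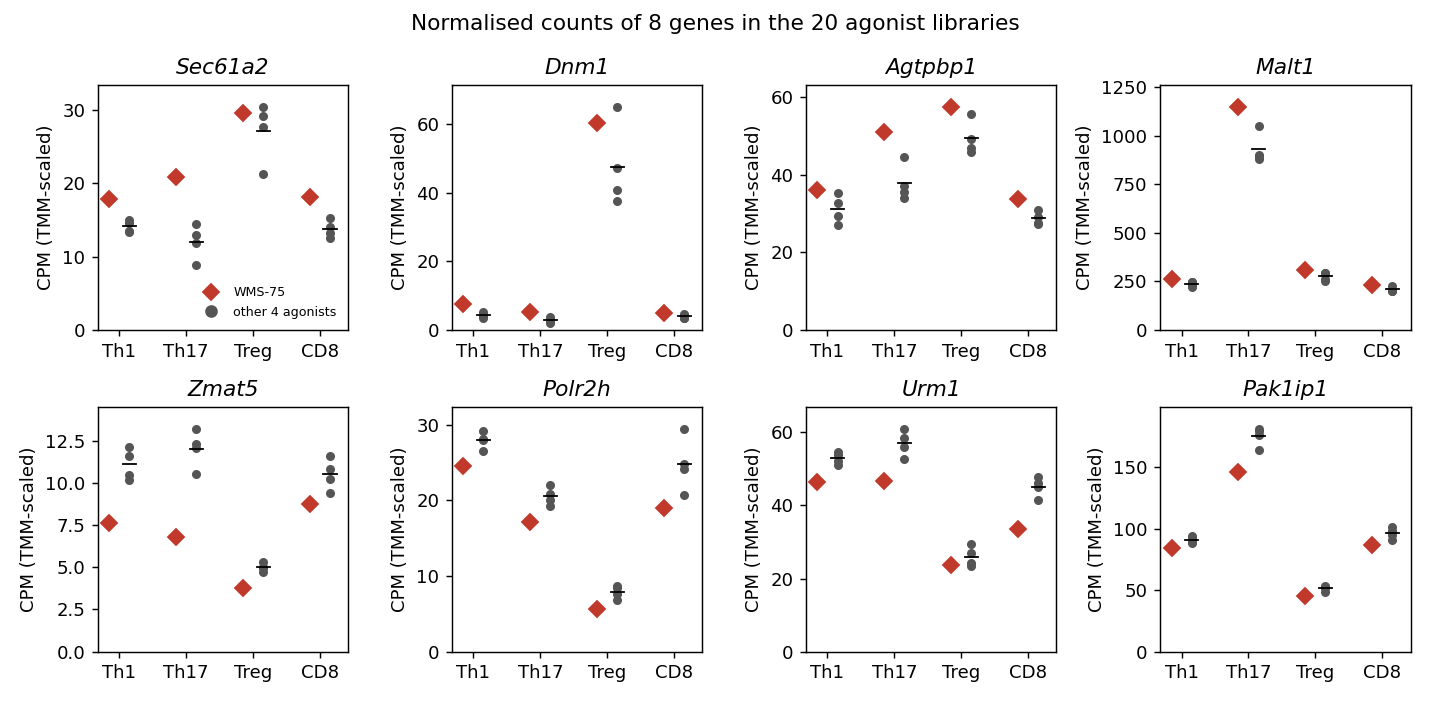
CPM after TMM scaling (vertical axes, from 0) of 4 genes with higher and 4 with lower estimates in Th1, Th17, Treg and CD8 libraries; red diamonds are the WMS-75 library, grey points the libraries of the other 4 agonists and bars their mean. Agtpbp1 and Malt1 lie above, and Zmat5, Polr2h and Pak1ip1 below, all others in each cell type, and none of the 8 genes passed the test.

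Without Treg the same rule, with 5 genes a direction, took Tep1 (0.37 ± 0.08), Sec61a2, Gm43481 (1.05 ± 0.23), Mfsd4a (0.28 ± 0.06) and Dnajc28 (0.99 ± 0.24) as higher and Txndc17 (-0.29 ± 0.06), Urm1 (-0.30 ± 0.07), D8Ertd738e (-0.28 ± 0.06), Zmat5 and Ndufb3 (-0.33 ± 0.08) as lower. None was called by edgeR. Tep1 had 56.1 CPM in Th1, 71.7 in Th17 and 58.8 in CD8 under WMS-75, against 47.1 to 55.1, 39.8 to 50.9 and 42.7 to 51.5 CPM under the other agonists, and in Treg it was inside their range with 115 CPM against 97.1 to 126. Ndufb3, a subunit of respiratory complex I, had 24.99, 20.2 and 25.6 CPM in Th1, Th17 and CD8 against 26.1 to 31.4, 27.2 to 29.7 and 29.2 to 33.95 CPM, and 12.4 in Treg against 10.9 to 16.1. With these 15 libraries DESeq2 called 8 genes, namely D8Ertd738e, Gm43481, Rskr, Sec61a2, Tep1, Txndc17, Urm1 and Zmat5, and limma-voom called 2, Gm43481 and Mid1-ps1.

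Whether the difference in Treg differs from that in the other cell types was tested as an interaction, in which the 1 Treg library of WMS-75 was assumed to vary like the others. Of 15898 genes 0 were called (0%), and 451 were at an unadjusted p under 0.05 (2.84%), where 283 had a lower and 168 a higher estimate in Treg than elsewhere. Cd40lg, the T cell ligand of CD40, was at 44.2 CPM in Treg under WMS-75 against 21.0 to 33.4 under the other agonists, while its 82.2 CPM in Th17 and 41.7 in CD8 lay just under 84.1 to 104 and 42.3 to 46.7 CPM. The interaction was 0.67 ± 0.19 on the log2 scale and was not called. The chemokine receptor gene Ccr2 had 0 counts in the Treg library of WMS-75, which allows up to 0.160 CPM, against 0.276 to 0.995 CPM under the other agonists. Its levels in the other cell types, 7.10 CPM in Th1, 2.38 in Th17 and 15.2 in CD8, stood beside 4.74 to 6.72, 1.73 to 3.31 and 15.1 to 18.2 CPM. Acaca, which starts fatty acid synthesis, had 55.0 CPM in Treg against 67.8 to 83.7 (interaction -0.51 ± 0.15), and Celsr1 (-0.65 ± 0.18), the myosin gene Myo10 (-0.52 ± 0.15) and Entpd6 (-0.57 ± 0.17) were likewise lower in Treg. The other genes with higher estimates were Chst2 (0.76 ± 0.21), Mrps14 (0.68 ± 0.20) and the pseudogenes Gm4459 (1.77 ± 0.45) and Gm7887 (0.97 ± 0.28).

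Gene groups of known function are described by counts and by the median log2 difference of WMS-75 minus the other agonists; over all 15898 genes the median was -0.01, with 7619 estimates above and 8279 below 0. No member of any group was called.

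Of 82 ribosomal protein genes 80 had a lower estimate under WMS-75, 49 of them at an unadjusted p under 0.05, and the median was -0.19. The list was drawn from gene symbols after such genes had been seen among the smallest p. By cell type the median was -0.47 in Th17, -0.14 in Treg, -0.08 in CD8 and -0.07 in Th1, and the WMS-75 library was the lowest of 5 for 77 of the 82 genes in Th17, 32 in CD8, 15 in Th1 and 14 in Treg. These are 93.9%, 39.0%, 18.3% and 17.1% of the list, where WMS-75 was the lowest for 36.5%, 24.7%, 16.3% and 16.4% of all 10224 expressed genes, so that the shares in Th1 and Treg were near those of all genes. None of the 82 was the lowest in all 4 cell types. Rps27rt, a protein-coding gene whose symbol kept it off the list, was the lowest in all 4 (-0.56 ± 0.17). In Treg its margin was small, with 27.2 CPM under WMS-75 against 27.4 to 48.5 under the other agonists. Rpl30, of the large subunit, had 790 CPM in Th1, 686 in Th17, 125 in Treg and 907 CPM in CD8 under WMS-75 against 881 to 1129, 1013 to 1090, 161 to 172 and 844 to 928 CPM (-0.32 ± 0.07). It was below the others in Th1, Th17 and Treg and inside their range in CD8. It was called when the CD8 library of WMS-75 was left out, as the 1 gene called in that fit. Rps19, of the small subunit, had 1302, 1028, 195 and 1217 CPM against 1284 to 1490, 1330 to 1534, 214 to 260 and 1297 to 1363 CPM (-0.25 ± 0.07). Together the ribosomal protein genes took 9.76% of the counts of the Th17 library of WMS-75, against 11.7 to 12.9% in the other agonist libraries of Th17. In Th1 they took 11.7% against 11.8 to 12.9%, in Treg 2.29% against 2.10 to 2.90%, and in CD8 10.5% against 10.6 to 11.3%. The gap of the Th17 library was thus wider than the spread of the other 4, and in Th1 and CD8 WMS-75 was the lowest by a small margin.

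Oxidative phosphorylation genes of the nucleus had 24 of 24 members with a lower estimate, 12 at an unadjusted p under 0.05, and a median of -0.16. The Th17 median was -0.36 and the others were -0.05 in Th1, -0.08 in Treg and -0.09 in CD8. Uqcrq, a subunit of complex III, had 57.4 CPM in Th17 under WMS-75 against 80.7 to 85.6, but lay inside the range of the others in Th1 (78.2 against 77.0 to 95.6), Treg (11.3 against 11.3 to 17.2) and CD8 (86.8 against 79.3 to 96.3). The 12 mitochondrially encoded genes went the other way, with 12 higher estimates, none at an unadjusted p under 0.05, and a median of 0.36. By cell type the medians were 0.54 in Th1 and 1.01 in Th17 but -0.13 in Treg and -0.03 in CD8. Cytochrome c oxidase subunit mt-Co1 had 2661 CPM in Th1 and 1976 in Th17 against 1497 to 2177 and 730 to 1230, and 5239 in Treg and 2216 in CD8 against 4814 to 7324 and 1449 to 3104 (0.39 ± 0.20). Its Th1 and Th17 libraries lay above the others and its Treg and CD8 libraries inside their range. As a share of counts the mitochondrially encoded genes took 0.664% in Th1 against 0.429 to 0.558%, 0.553% in Th17 against 0.215 to 0.364%, 1.04% in Treg against 0.934 to 1.5%, and 0.520% in CD8 against 0.354 to 0.759%.

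**Figure D3:**
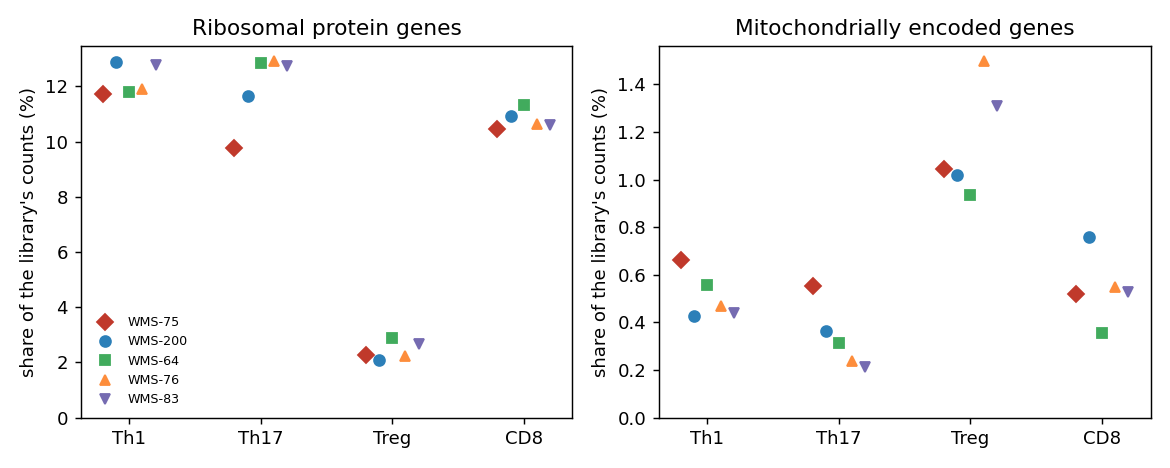
Share of each agonist library's counts (vertical axes, percent, from 0) taken by cytosolic ribosomal protein genes (left) and by mitochondrially encoded genes (right) in Th1, Th17, Treg and CD8; each point is 1 library, and red diamonds are WMS-75. The Th17 library of WMS-75 lies outside the range of the other Th17 libraries in both, with 9.76% against 11.7 to 12.9% and 0.553% against 0.215 to 0.364%.

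Stress and protein folding genes had mostly lower estimates. In the integrated stress and unfolded protein response 23 of 24 were lower and 7 reached an unadjusted p under 0.05 (median -0.13), among them Atf4, the transcription factor of the response (-0.12 ± 0.05), its target Ddit3 (-0.16 ± 0.07) and the endoplasmic reticulum chaperone Hspa5 (-0.13 ± 0.05). Heat shock and chaperone genes had 14 of 14 lower and 3 at that level (median -0.14), and the constitutive chaperone Hspa8 was at -0.14 ± 0.08. Lysosome genes had 19 of 19 lower and 2 at that level (median -0.09), and Psap, the precursor of the saposins, was at -0.09 ± 0.06. The median gene lengths of these lists, in the order given, were 2642, 2885 and 3788 bases. They fall in the second shortest length class of expressed genes, where 9.58% were lower at that level, so the lysosome count is near that share. In each of these groups the Th17 library had the lowest median, with -0.25, -0.21 and -0.20. Chemokine genes had 10 of 10 lower estimates and none at that level (median -0.22), and the medians were -0.41 in Th17 and -0.18 in Th1; the chemokine gene Ccl3 was at -0.09 ± 0.16. Proliferation genes had 21 of 25 lower and glycolysis genes 13 of 18 entries for 17 listed symbols, with medians of -0.07 and -0.09. By cell type the proliferation medians were -0.17 in Th17, 0.04 in Th1, -0.03 in Treg and -0.04 in CD8. Those of glycolysis were -0.18 in Th17, 0.07 in Th1, -0.22 in Treg and -0.06 in CD8.

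Groups that define the cell types had members on both sides of 0. Of 14 Th1 program genes 6 had a higher and 8 a lower estimate (median -0.01, range -0.25 to 0.20), and of 17 Th17 genes 7 and 10 (median -0.08, range -0.29 to 0.32). Of 20 Treg genes 9 were higher and 11 lower (median -0.01, range -0.42 to 0.43), and of 12 cytotoxic genes 6 and 6 (median 0.00, range -0.50 to 0.78). The Th17 program summed to 3658 CPM in the Th17 library of WMS-75, below 3726 to 4099 CPM under the other agonists. Ifng was at 538 CPM in Th1 and 1342 in CD8 under WMS-75 against 525 to 681 and 1314 to 1472 CPM (0.07 ± 0.16 over the 4 cell types). Foxp3 was at 290 CPM in Treg against 208 to 356 (0.03 ± 0.17). In Th17 the interleukin gene Il17f had 687 CPM against 791 to 1010 and lay below the others, and Il17a had 115 against 111 to 203 and lay inside their range (-0.26 ± 0.28 and -0.27 ± 0.25 over the 4 cell types). Of 15 T cell identity genes 13 had lower estimates (median -0.07), with Cd3d, a chain of the antigen receptor complex, at 195 CPM in Th17 against 254 to 292.

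Genes downstream of a receptor of this class were examined as well. Among 27 genes of G protein and cAMP signalling 13 estimates were higher and 14 lower (median -0.02), and 1 was at an unadjusted p under 0.05, the phosphodiesterase gene Pde4a (0.38 ± 0.17). Pde4c (0.51 ± 0.15), described above and also at that level, is not a member of this list. Gnai2, an inhibitory G protein subunit, was at -0.11 ± 0.06, Gnai3 at -0.05 ± 0.07 and the cAMP-responsive factor Creb1 at 0.06 ± 0.06. Immediate early genes, which follow stimulation, had 17 of 24 lower estimates (median -0.06), with Fosb at 0.37 ± 0.17 and Fos at -0.19 ± 0.14. Cytokine genes had 15 of 22 lower (median -0.05), interferon response genes 12 of 18 (median -0.06), cholesterol and fatty acid synthesis genes 19 of 25 (median -0.04), and splicing factors 8 of 20 (median 0.01).

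**Figure D4:**
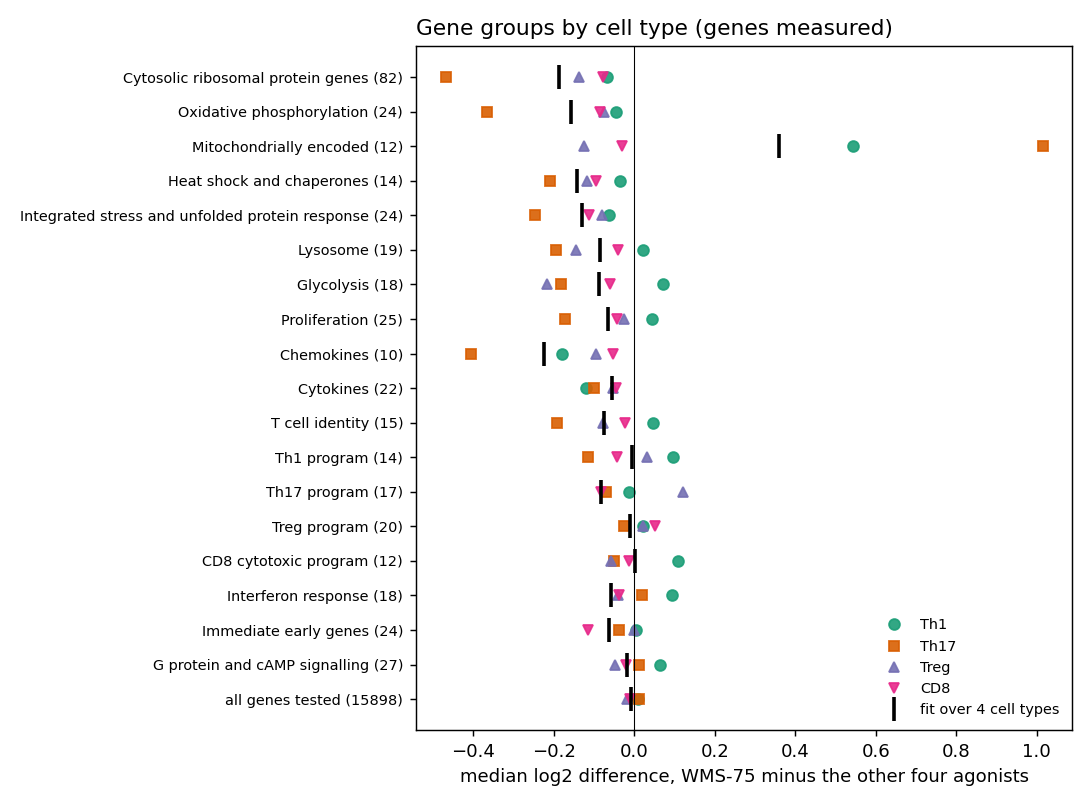
Median log2 difference of WMS-75 minus the other 4 agonists (horizontal axis) for 18 gene groups and for all genes tested, with the number of genes measured in brackets; coloured points are single cell types and black bars the fit over 4 cell types. Th17 points reach -0.47 for ribosomal protein genes and 1.01 for mitochondrially encoded genes, and the points of the lineage programs lie between -0.11 and 0.12.

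Gene length moved with these differences. Across 10224 expressed genes the rank correlation of the WMS-75 estimate with the gene length in the file was 0.43, and 0.49 without Treg, and both are given as a description, since genes of a library share its preparation. For the same comparison of the other agonists it was 0.11 with WMS-200, -0.34 with WMS-64, -0.13 with WMS-76 and -0.14 with WMS-83. There the WMS-75 libraries are among those set against the agonist, so these values depend on each other. In single libraries of WMS-75 the correlation was 0.45 in Th17, 0.30 in CD8, 0.13 in Th1 and 0.098 in Treg. Under the other agonists it ran from -0.41 to 0.27 in Th17 and from -0.28 to 0.18 in CD8. In Th1 it ran from -0.33 to 0.22 and in Treg from -0.32 to 0.25. WMS-75 was thus above the others in Th17 and CD8 and inside their range in Th1 and Treg. With genes split by length into 5 classes, the shortest had a median of -0.10 and 17.4% of genes lower against 1.22% higher at an unadjusted p under 0.05, and the longest had a median of 0.04 with 1.47% lower against 8.86% higher. The median of the shortest class was -0.24 in Th17 under WMS-75, against -0.05 to 0.13 under the other agonists there. Each library was set against the other agonist libraries of its cell type, so these medians depend on each other too. In Treg the median of the shortest class was -0.05 under WMS-75, against -0.16 under WMS-200 and 0.18 under WMS-83, so libraries of other agonists also differed with length. Among the genes described above, Agtpbp1 (21824 bases) and Malt1 (18040) are in the longest class. Zmat5 (1248) and Polr2h (1509) are in the shortest, and Sec61a2, Dnm1, Urm1 and Pak1ip1 are in the middle class. The part of length in the differences of these genes was not tested.

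**Figure D5:**
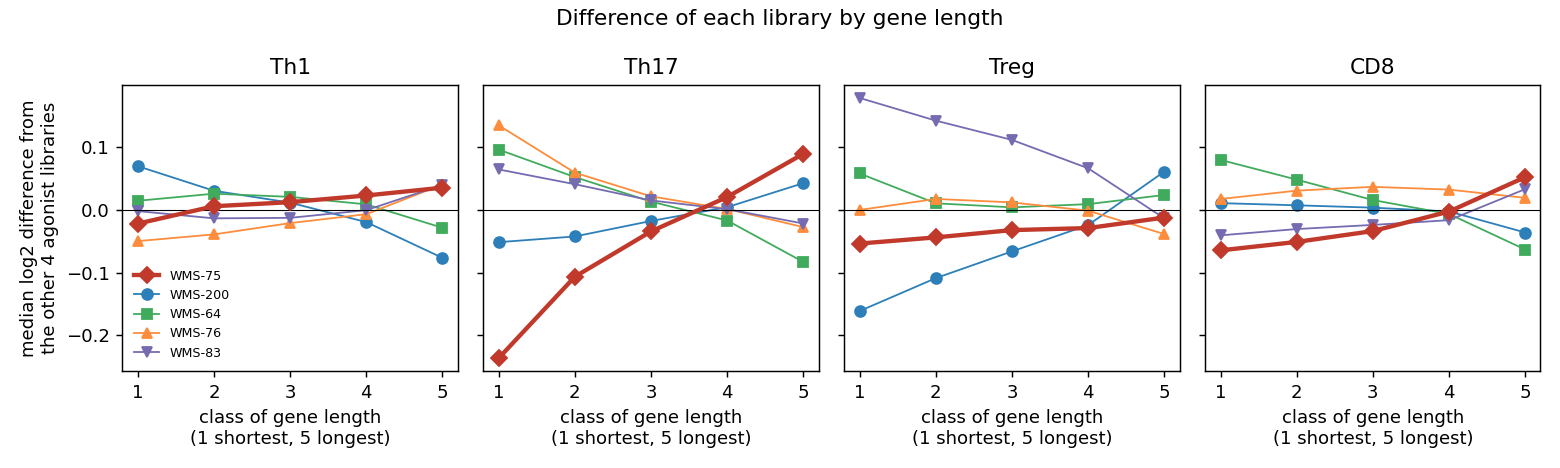
Median log2 difference of each library from the other 4 agonist libraries of its cell type (vertical axis) in 5 classes of gene length (horizontal axis, shortest to longest), for Th1, Th17, Treg and CD8; the thick red line is WMS-75. In Th17 the WMS-75 line runs from -0.24 in the shortest class to 0.09 in the longest.

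Ribosomal protein and oxidative phosphorylation genes are short, with median lengths of 1776 and 2140 bases in the file against 3765 for all genes tested. Offsets that remove a smooth trend of the counts on gene length were therefore tried in 2 versions. With the trend taken from all tested genes, a rank correlation of 0.28 with length was left, 1507 genes were at an unadjusted p under 0.05 and the ribosomal protein median was -0.20. With the trend taken from expressed genes, a version adopted after that remainder was seen, the correlation was 0.0018 and the number was 1174, of which 656 were higher and 518 lower. In that fit the ribosomal protein median was -0.11 with 77 of 82 lower and 28 at an unadjusted p under 0.05. The oxidative phosphorylation median was -0.08 with 22 of 24 lower and 4 at that level. The mitochondrially encoded median was 0.49 with 12 of 12 higher and 4 at that level. Medians of the stress response, chaperone, lysosome and chemokine lists shrank, to -0.08, -0.10, -0.07 and -0.13. Their lower estimates numbered 19 of 24, 13 of 14, 16 of 19 and 8 of 10. Of these, 4, 2, 1 and 0 were at that level, in the same order. Both versions called 0 genes. The part that length, RNA quality or the preparation of the Th17 library plays in the differences of these groups was not tested, and with 1 library for each cell type and agonist the library and the agonist cannot be told apart within a cell type.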

How the data were processed

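The authors deposited 1 table of read counts per gene for the 24 libraries, for which the submitters' processing notes name featureCounts, HISAT2 and fastp; the sources used here give no version, strand setting, genome build or annotation. Of its 56748 genes, filterByExpr by cell type (minimum count 10) kept 15898, and 14841 without Treg. All 24 value columns were matched to labelled samples, 0 being left over; 1 title naming Th17 with WMS-83 belongs to a library that its other labels and its column give as Th1. Counts were scaled by TMM and tested with edgeR 4.0.16 (quasi-likelihood, robust) in R 4.3.3, with cell type as block and 15 residual degrees of freedom (11 without Treg); limma 3.58.1 and DESeq2 1.42.0 were alternatives. P was adjusted by Benjamini and Hochberg over all genes tested. Errors after ± are standard errors of log2 differences. The genes named are those with the smallest p per direction (10 over 4 cell types, 5 each without Treg and for the interaction), a mean log2 CPM of at least 1 (prior count 2) and the same side in every cell type where that applies; members of lists, and genes called in an alternative, are named besides; 1 gene that the rule picked is not reported here. The comparison, the lists and the tests were chosen with earlier results of these data known. The ribosomal list, the length classes, the fits without Th17, the second length version and the search for absent genes were added after seeing the data. Scripts were tested on simulated data.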

Additional observations from a re-analysis of the deposited data

Results flagged for a closer look

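In each cell type the highest and lowest of the 5 agonist libraries were checked for a value far from the rest, whichever agonist they had. The measure was the gap to the nearest library as a share of the range of all 5 (Dixon's criterion, critical value 0.71). All marks fell on WMS-75 libraries. Of 156 sets of 5 libraries 10 were marked, where chance marks about 1 in 20, and all but 1 concern genes that had been picked for their WMS-75 difference, so that more marks than chance gives are no separate result. The total count of the Treg library of WMS-75, 15409985, lay below 17799447 to 18500457 of the other agonists. The shares of ribosomal protein and mitochondrially encoded genes were compared by the same rule, and no library was marked for them, the Th17 library of WMS-75 included.

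In Th17, Zc3hav1l was at 17.8 CPM under WMS-75 against 10.5 to 12.3 under the other agonists, and Mfsd4a at 59.1 against 43.1 to 47.5. In the same library Txndc17 was at 43.3 CPM against 54.3 to 58.7 and Ndufb3 at 20.2 against 27.2 to 29.7. In Th1, 1810058I24Rik was at 34.4 CPM against 42.4 to 44.5 and Gm43481 at 4.19 against 1.86 to 2.29. In CD8, Gm43481 was at 6.11 CPM against 2.30 to 3.17 and Zc3hav1l at 17.6 against 13.4 to 14.3. In Treg, the pseudogene Gm4459 was at 2.56 CPM against 0.904 to 1.102.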

How the results depend on the processing

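The count of called genes for WMS-75 stayed at 0 with size factors of DESeq2, a mean of at least 5 CPM, a term per compound, DMSO in the fit, both length versions and each other agonist left out, with and without Treg. With no filter on low counts 26 genes were called and 2743 were at an unadjusted p under 0.05, and without Treg 134 and 3135; the cause was not tested. Without Treg the DESeq2 test called 8 and limma-voom 2. Without all Th17 libraries, a fit added later, 408 genes were at an unadjusted p under 0.05. With the WT number as a replicate block, 0 genes were called and 1886 were at an unadjusted p under 0.05 (0 and 1763 without Treg), and the interaction had 1, Gm21742; the meaning of these numbers is unknown, and the samples were not taken as paired. Each library left out in turn gave 0 to 1 called genes and 474 to 2078 at an unadjusted p under 0.05 over the 4 cell types, and 0 to 2 and 588 to 2532 without Treg, where 10 of 15 such fits called Gm21742, which the filter kept out of the fit of all 15 libraries, and 1 of them Gm43481 as well; both low numbers are without the Th17 library of WMS-75. For the interaction the range was 0 to 1. With limma-voom the other agonists had 18 called genes (WMS-200) and 1 (WMS-64), and the pair with WMS-200 had 5; with DMSO in that fit it had 0. Among named genes no direction reversed, and 6 over 4 cell types and 8 without Treg passed under at least 1 alternative, chiefly with no filter or in DESeq2. The length trend of expressed genes was chosen after the first left a trend. Depth limits genes under about 5 CPM, such as Ccr2 in Treg.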
